A study of Rattus norvegicus with 24 samples.

Results

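The genes described here encode the oxidative phosphorylation machinery of rat hepatocytes: the nuclear-encoded subunits of respiratory complexes I to IV and of ATP synthase (complex V), with the complex I assembly factors that share the Nduf prefix. They were taken by gene symbol, as every probe set with a single symbol that begins with Nduf, Uqcr, Atp5 or Cox4 to Cox8, or that is Sdha, Sdhb, Sdhc, Sdhd, Cyc1 or Cycs. This gave 97 of the 31042 probe sets tested, and 87 of the 14217 genes measured. Of the 87 genes, 78 had 1 probe set and 9 had several, which were read by the probe set with the highest mean over all arrays. The genes were taken by symbol and not by their values, but the rule was set with earlier results of these data known. The 87 comprise 79 genes whose products are common to most tissues, 7 isoforms limited to certain tissues (Cox4i2, Cox6a2, Cox6b2, Cox7a1, Cox7b2, Cox8b and Ndufa4l2), and Cox6c-ps1, a symbol of a pseudogene.

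Primary rat hepatocytes were cultured either on 1 layer of type I collagen gel, the monolayer, or between 2 layers, the sandwich, the upper one being laid on 24 h after seeding. Samples date from 1, 2, 3 and 8 days after the second gel was added, with 3 replicates in each of the 8 groups, which makes 24 Affymetrix arrays. All groups received the same medium, which held 10% serum, epidermal growth factor at 20 ng/mL, insulin at 0.5 U/mL, glucagon at 14 ng/mL and hydrocortisone at 7.5 µg/mL, under 10% CO2. The labels do not say whether replicates came from separate animals or cultures, so the p-values measure only the spread between these arrays, which may be technical.

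Complex I passes electrons from NADH, and complex II from succinate, to ubiquinone; complex III hands them on to cytochrome c and complex IV to oxygen. The protons pumped by complexes I, III and IV drive ATP synthase. Hepatocytes are rich in mitochondria and use this ATP for gluconeogenesis, urea synthesis and secretion.

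Levels are deposited log2 probe set values, so a difference of 1 is a doubling, and levels of different genes are not compared. A gene was called at an adjusted p under 0.05 (limma, two-sided, Benjamini-Hochberg over all 31042 probe sets), and errors of differences are standard errors (SE) of the model. Array medians lay between 5.57 and 5.67, and the median of all values was 5.62. All 79 common members lay above that median, and 71 of them had a mean above 9, against 2269 of all 14217 genes. Of the 5 members below it, none was a common one. Cytochrome c itself (Cycs) had no probe set with its symbol alone. A further 9 probe sets carried a symbol of the rule together with other symbols and were kept apart, because related genes or pseudogenes cannot be told apart in them. Of those 9, 3 were higher in sandwich and 0 lower at day 3, and likewise 3 and 0 at day 8. Among all genes 10.9% were higher at day 3 and 15.6% at day 8. Among genes with a mean above 9, as most of these 9 had, the shares were 23.3% and 31%.

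Promoters of 78 of the 87 members were matched by gene identifier in RefSeq (rat build GRCr8), as the 250 bases before the annotated start. These promoters are shown because most members moved the same way. Their median GC content was 55.2%, against 51.2% over all 33469 promoters of that length, and they held a median of 15 CG pairs against 5. Neither median was worked out for the promoters of measured genes alone. The letters GCGCANGCG, most of the motif of the nuclear respiratory factor NRF1, were found on either strand in 16 of the 78 (20.5%), against 5.09% of all promoters and 10.1% of the 11700 promoters of measured genes. The motif CCGGAAG, of ETS factors such as GABP, was found on either strand in 21 (26.9%), against 7.27% of all and 12.9% of those of measured genes. The motif AAGGTCA, of the estrogen-related receptors (ERR), was likewise found in 6 (7.69%), against 3.99% and 2.76%. A match is a description of letters, not a site in use. The NRF1 matches of 5 members described below, on the gene's strand with up to 10 bases on each side, are printed with the match in capitals. Cox7a2l, also described below, held an NRF1 match that is not printed (chr6:16936551-16936573, plus strand). Its culture differences at days 3 and 8 lay below 0 and were not called. Sdha and Uqcrc1 hold a pair each, the first of Uqcrc1 being a match of the opposite strand. In Ndufaf4 and Atp5po the letters also match on the opposite strand 1 base further on.
Ndufv3 (chr20:9613737-9613765, plus strand): cagaatgcgcGCGCAAGCGcttggcccca
Ndufaf4 (chr5:43401627-43401655, plus strand): gcagtagtccGCGCATGCGcccctgtgga
Sdha (chr1:30764454-30764482, plus strand): cgtttgcagaGCGCAGGCGcaccaccact
Sdha (chr1:30764497-30764525, plus strand): ggagcgtgttGCGCAGGCGcagagccttc
Uqcrc1 (chr8:118468150-118468178, plus strand): ttccttacagCGCCTGCGCctcatactcc
Uqcrc1 (chr8:118468174-118468202, plus strand): actccaccctGCGCATGCGtagcgcggct
Atp5po (chr11:44657524-44657552, minus strand): acgccgacgcGCGCATGCGctctggcatc

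For contrast, the whole 250 bases are printed for Uqcrq, with its ERR match (first) and ETS match (second) in capitals, and for Cox6a2, the muscle isoform whose course differed from the others, which held none of the 3 motifs and 5 CG pairs.
Uqcrq (chr10:38089979-38090228, minus strand): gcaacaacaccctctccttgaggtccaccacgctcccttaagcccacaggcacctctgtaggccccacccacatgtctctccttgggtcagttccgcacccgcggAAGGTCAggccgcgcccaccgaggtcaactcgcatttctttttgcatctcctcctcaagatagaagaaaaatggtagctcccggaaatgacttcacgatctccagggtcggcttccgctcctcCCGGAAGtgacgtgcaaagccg
Cox6a2 (chr1:192219717-192219966, minus strand): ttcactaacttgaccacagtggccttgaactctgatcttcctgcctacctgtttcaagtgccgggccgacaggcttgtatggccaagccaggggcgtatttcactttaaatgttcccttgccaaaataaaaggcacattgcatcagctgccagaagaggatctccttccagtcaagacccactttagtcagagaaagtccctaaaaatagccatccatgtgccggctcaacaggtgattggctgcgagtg

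The motifs were matched independently of each other, and 3 members, Atp5me, Atp5mg and Ndufa6, held both the NRF1 and the ETS letters. Among the 16 common members with an NRF1 match, 10 were higher in sandwich at day 8, with a median difference of 0.25. Among the 56 common members with a promoter but no NRF1 match, 34 were higher and 1 lower, with a median of 0.26. With an ETS match 12 of 21 were higher (median 0.25), and without one 32 of 51 were higher and 1 lower (median 0.26). These counts are given as a description.

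Few of these genes were called between sandwich and monolayer at days 1 and 2, and many at days 3 and 8. At day 1, 0 of the 87 members were called in either direction by limma (1 higher and 6 lower at an unadjusted p under 0.05), although 69 of the 79 common members had a difference below 0 (median -0.09) and 12 had all 3 sandwich arrays below all 3 monolayer arrays. Among all genes, 0.823% were called higher and 1.75% lower in sandwich at day 1, and 13.1% of all genes had sandwich arrays all below the monolayer arrays. A difference below 0 was also found for 7505 of all 14217 genes (median -0.01). Of the 2269 genes with a mean above 9, 1590 had one (median -0.07), and 537 had sandwich arrays all below the monolayer arrays. At day 2, 2 common members, Ndufv2 and Ndufaf4, were called higher and none lower (2.83% and 5.85% of all genes), with a median difference of 0.04. Ndufaf4 differed by 0.44 ± 0.10 and Ndufv2 by 0.26 ± 0.08. Ndufaf4 was not called without monolayer day 2 replicate 3 (adjusted p = 0.0976) or sandwich day 2 replicate 1 (0.0534), and Ndufv2 was not called without any 1 of the 6 day 2 arrays (0.0648 to 0.158).

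At day 3, 37 of the 79 common members (46.8%) were higher in sandwich and 0 lower, against 10.9% and 11.8% of all genes, and the median difference was 0.24 (1.18-fold). At day 8, 48 (60.8%) were higher and 1, Atp5if1, was lower, against 15.6% and 20.7% of all genes, with a median of 0.26 (1.20-fold). Over all genes the median differences were 0.01 at day 3 and 0.00 at day 8. The arrays of sandwich lay wholly above those of monolayer for 59 common members at day 3 and 60 at day 8, against 18.5% and 21.1% of all genes.

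Since these genes are bright on the array, the same counts were set beside bright genes alone. Of the 71 common members with a mean above 9, 46.5% were higher at day 3 and 64.8% at day 8, against 23.3% and 31% of the 2269 genes above that mean, whose median differences were 0.03 and 0.00. Of the common members, 29 were called higher at both days, which is 78.4% of the day 3 list and 60.4% of the day 8 list. Among all common members 60.8% were higher at day 8 and 46.8% at day 3. The 2 lists are not independent: the days share no arrays, but each probe set has 1 estimate of spread over all 24. The differences were small: 7 common members were called and at least 1.5-fold apart at day 8, and 0 were at least 2-fold apart. Without sandwich day 3 replicate 2, 24 members of all 87 were higher and 1 lower at day 3, in place of 37 and 1. Fitted on the arrays of the comparison alone, 22 were higher and 1 lower at day 3, and 32 were higher and 1 lower at day 8 in place of 50 and 1.

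**Figure D1:**
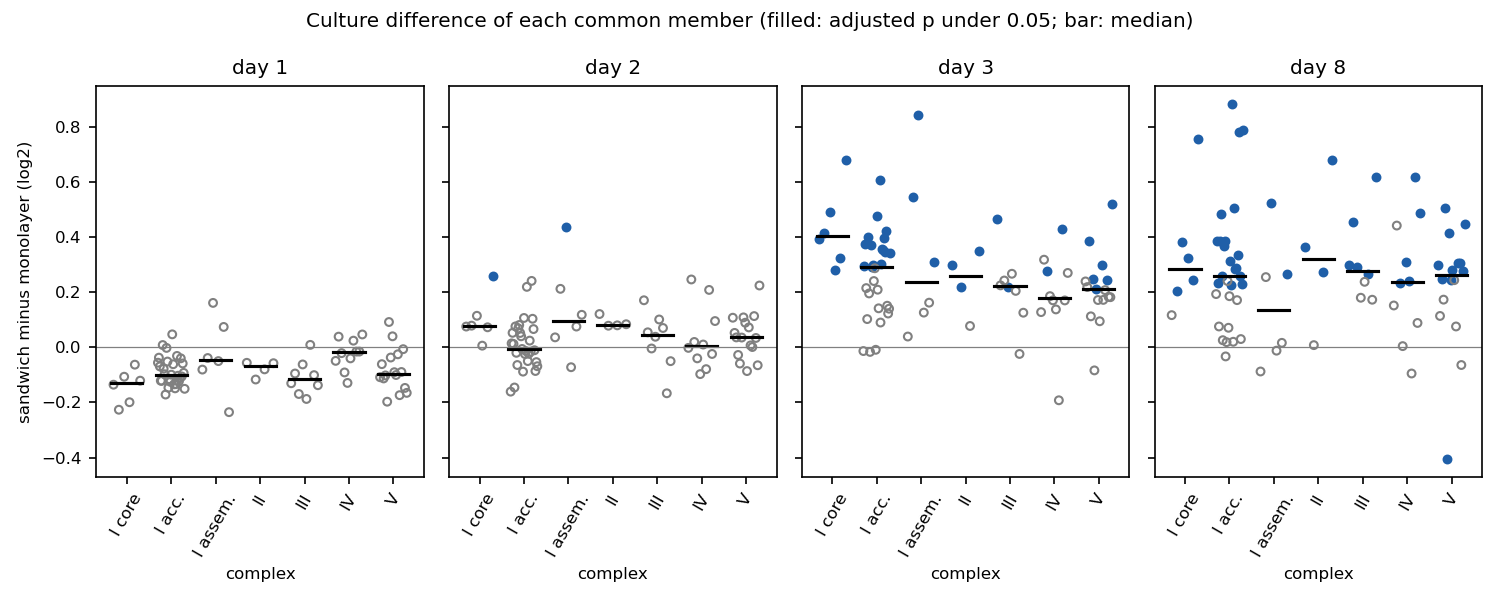
Difference between sandwich and monolayer (log2, vertical axis) of each of the 79 common members at days 1, 2, 3 and 8, by complex, with filled points for members called at an adjusted p under 0.05 (limma) and a bar at the median. At day 1 no point is filled, at day 3 37 and at day 8 49 are, and the 1 filled point below 0 at day 8 is Atp5if1 at -0.41.

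Some other measures moved with the culture. The summed level of 5 hepatocyte markers lay between 16.16 and 16.20 (log2) in the sandwich arrays at day 8 and between 15.74 and 15.87 in the monolayer arrays, with 4 of the 5 higher in sandwich and 0 lower. At day 3 it was 16.02 to 16.08 against 15.89 to 15.90, with 3 of 5 higher, and 2 of 5 were higher at day 1 and again at day 2, when 0 and 2 common members were called. That of 4 bile duct markers was 10.13 to 10.38 in monolayer and 9.45 to 9.73 in sandwich at day 8, with 2 lower in sandwich (Krt7 and Krt19), where at day 3 1 had been higher. All 7 macrophage markers measured were higher in sandwich at day 3 (summed level 9.94 to 10.12 against 9.27 to 9.39), and at day 8 none was higher and 1 lower. Of 8 stellate cell or fibroblast markers 0 were called at day 3 and 2 were lower in sandwich at day 8 (summed level 8.73 to 9.58 against 9.33 to 9.69). The 6 endothelial and 4 lymphocyte markers measured lay below the median of all values in every group, where 1 of each was called higher at day 8. The beta-actin 3′ minus 5′ control difference, a measure of RNA or labelling quality, was 0.82 ± 0.04 in the 12 monolayer arrays and 0.99 ± 0.11 in the 12 sandwich arrays (mean ± SD), with overlapping ranges. The part of these in the culture differences was not tested, and in bulk samples fewer cells of a type and less RNA per cell cannot be told apart.

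The cultures moved apart by day 3, and both fell after it. Relative to each gene's own mean, the median over the 79 common members in the 3 monolayer arrays was 0.03, 0.02 and -0.04 at day 1, and -0.20, -0.23 and -0.15 at day 8. In the sandwich arrays it was -0.10, -0.10 and -0.03 at day 1, 0.19, 0.20 and 0.12 at day 3, and 0.04, 0.09 and 0.07 at day 8. From day 1 to day 2 its group mean went from 0.00 to 0.04 in monolayer, with overlapping arrays, and from -0.08 to 0.08 in sandwich. From day 2 to day 3 monolayer fell to -0.09 and sandwich rose to 0.17. By day 8 both had fallen, to -0.19 and 0.07. Monolayer thus stood highest on its first days and lowest at day 8, while sandwich was lowest at day 1 and highest at day 3, and at days 3 and 8 the arrays of the cultures did not overlap. The highest of the 8 group means was that of sandwich day 3 for 43 of the 79 (54.4%), against 12.2% of all genes, and the lowest was that of monolayer day 8 for 44 (55.7%), against 24.4% of all genes and 32.7% of those with a mean above 9.

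**Figure D2:**
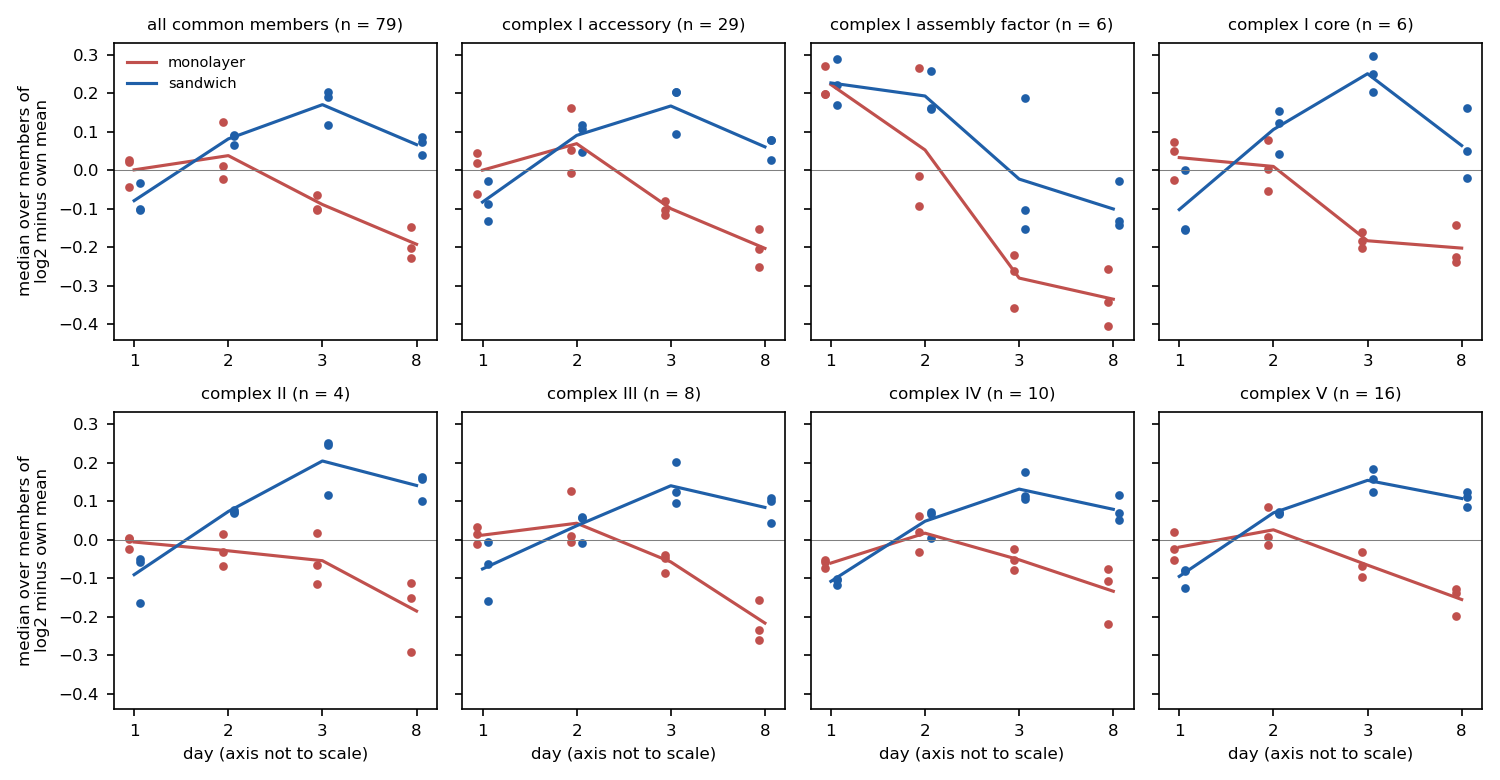
Median over the common members of each complex of the log2 value minus the gene's own mean over 24 arrays (vertical axis), by day (horizontal axis, not to scale), with 1 point per array and a line through the group means for monolayer (red) and sandwich (blue). Over all 79 members the sandwich mean lies below the monolayer mean at day 1 (-0.08 against 0.00) and above it at day 8 (0.07 against -0.19). The median of the 6 assembly factors with the Nduf prefix falls in both cultures.

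In monolayer, 0 common members were higher and 1 lower at day 2 than at day 1 (3.56% and 3.42% of all genes), 1 higher and 19 lower at day 3 (11.1% and 15.1%), and 3 higher and 35 lower at day 8 (17.5% and 21.2%), with a median change of -0.19 at day 8. Bright genes as a whole moved down there too. Of the genes with a mean above 9, 29.6% were lower at day 3, more than the 18.3% of the common members above that mean. At day 8 41.6% of those genes were lower, with a median of -0.16, close to the 42.3% of the members. Markers of other cells moved over the same days: 3 of 4 bile duct markers were higher and 0 lower in monolayer at day 8 than at day 1 (summed level 9.21 to 9.24, then 10.13 to 10.38), 4 of 8 stellate cell or fibroblast markers were higher and 0 lower (7.94 to 8.17, then 9.33 to 9.69), and 4 of 7 macrophage markers were higher and 2 lower (9.48 to 9.62, then 9.69 to 10.04). Their part in the monolayer change was not tested. With each array centred on its median, 2 of all 87 members were higher and 42 lower in monolayer at day 8, in place of 4 and 35, and over all probe sets the calls were 3752 higher and 6154 lower in place of 4661 and 4894.

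In sandwich, 10 common members were higher and 0 lower at day 2 than at day 1 (4.17% and 3.97% of all genes), 40 higher and 4 lower at day 3 (10.2% and 9.62%), and 29 higher and 5 lower at day 8 (14.3% and 17.5%), with medians of 0.17, 0.27 and 0.16. Of genes with a mean above 9, 10.8% were higher at day 2, near the 14.1% of the common members above that mean. At day 3 the shares were 21% of those genes and 54.9% of the members, and at day 8 24.2% and 39.4%. In sandwich too, markers of other cells were higher at day 8 than at day 1: 2 of 4 bile duct, 3 of 8 stellate cell or fibroblast and 4 of 7 macrophage markers, with 2 macrophage markers lower, and their part was not tested. The day 2 count rests on single arrays: 11 of all 87 members were called, and 5 without sandwich day 1 replicate 1, 7 without its replicate 2, and 7, 6 and 5 without sandwich day 2 replicates 1, 2 and 3. Fitted on the arrays of the comparison alone, 17 members were higher and 2 lower at day 3 in place of 41 and 4.

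Whether the day 8 change from day 1 was the same in both cultures was tested as a contrast of its own, sandwich minus monolayer. For 36 of the 79 common members this difference was above 0 and for 1, Atp5if1, below 0 (11.3% and 10.5% of all genes called), and the median was 0.36. Among genes with a mean above 9 the calls were 26.6% above 0 and the median 0.07.

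**Figure D3:**
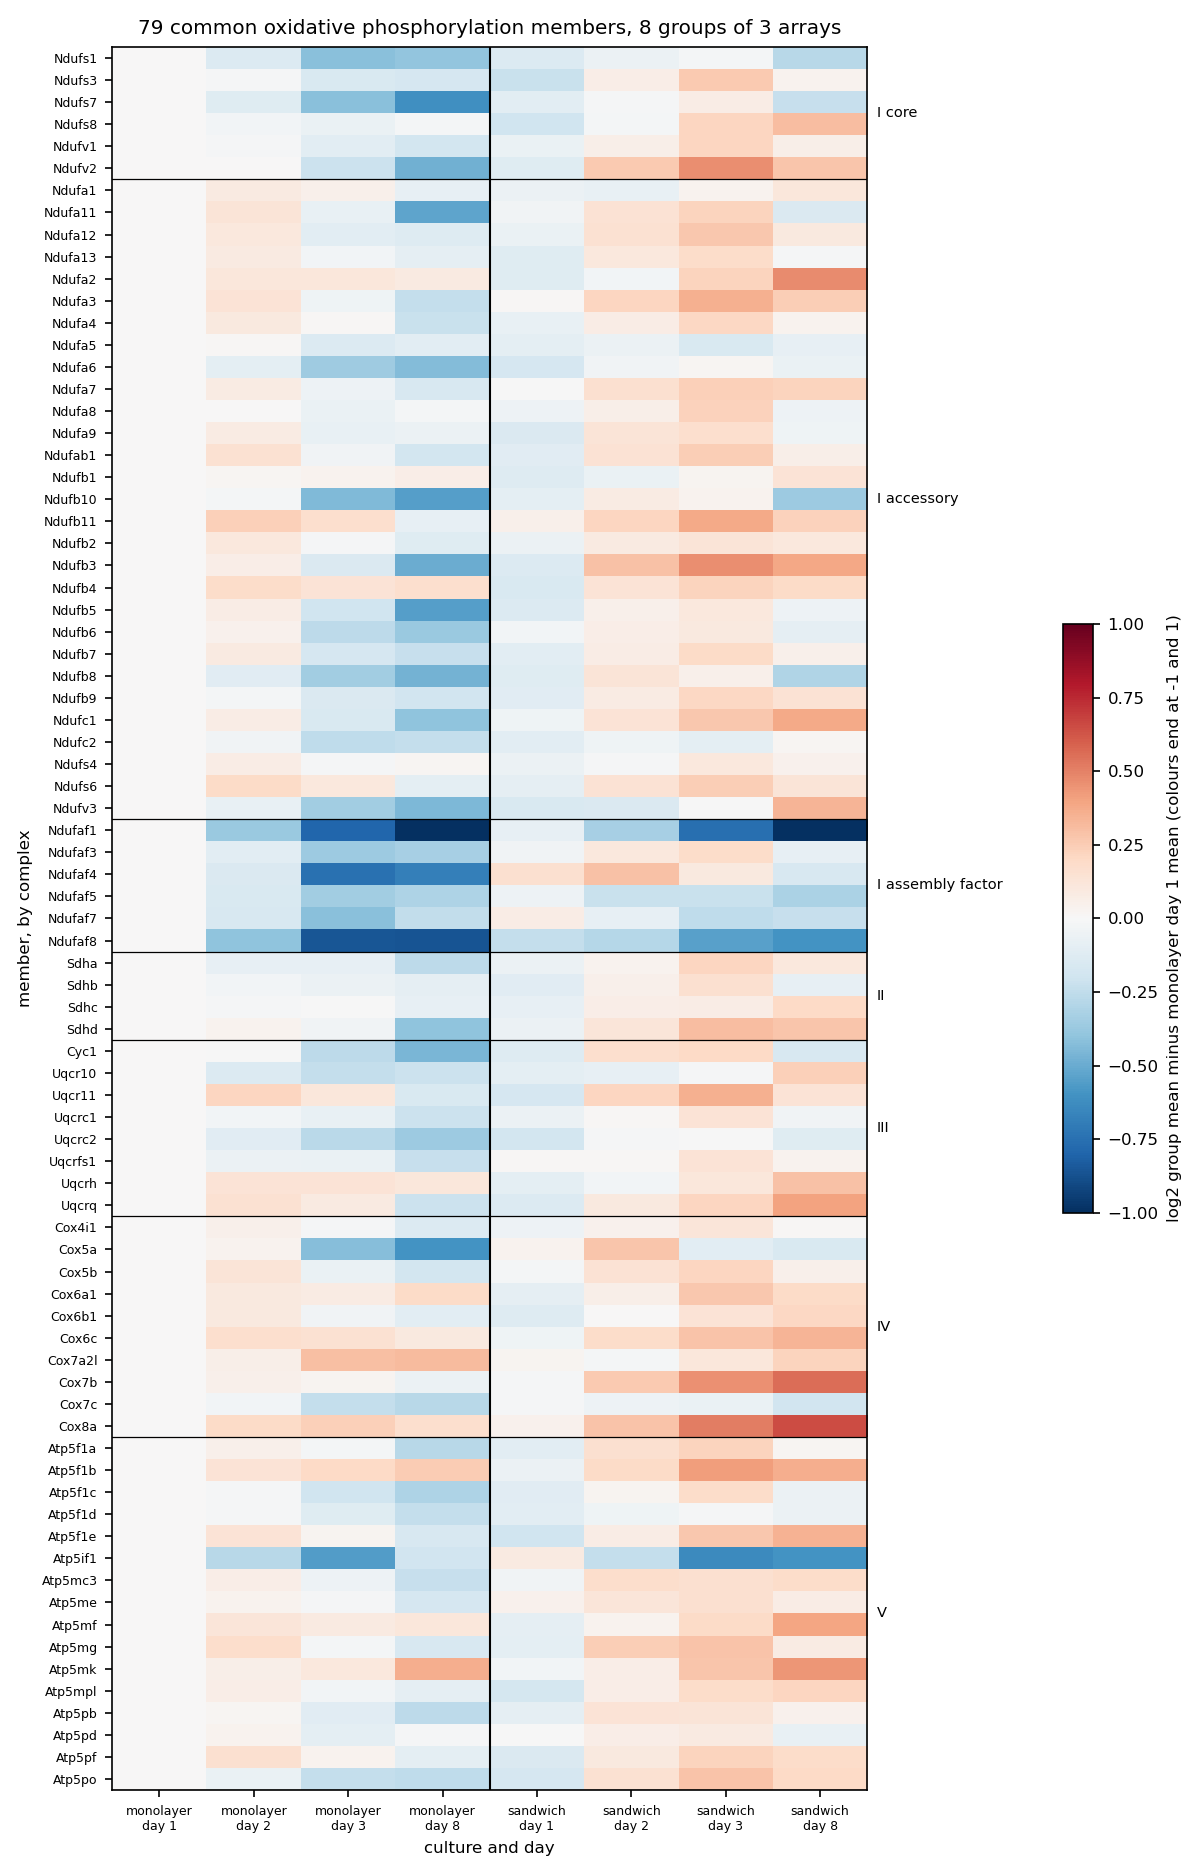
Mean of 3 arrays minus the monolayer day 1 mean (log2, colour, ending at -1 and 1) for the 79 common members (rows, by complex) in the 8 groups (columns). Monolayer day 8 is mostly blue and sandwich day 3 mostly red, while the assembly factors Ndufaf1 and Ndufaf8 and the inhibitor Atp5if1 are blue at sandwich day 8.

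In complex I, which oxidises NADH, all 6 measured core subunits, the set conserved from bacteria that carries out the electron transfer, were higher in sandwich at day 3 (median 0.40), and 5 of 6 at day 8 (median 0.28). Of 29 accessory subunits, which surround that core, 15 were higher at day 3 and 18 at day 8 (medians 0.29 and 0.26), and 0 lower. Among all genes with a mean above 9, 23.3% were higher at day 3 and 31% at day 8, and the counts by complex are read beside these shares; no test compared one complex with another.

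Ndufv2, a core iron-sulfur subunit of the NADH-oxidising module, read 10.49, 10.35 and 10.48 in monolayer and 11.18, 11.21 and 11.20 in sandwich at day 8. The groups lay far apart, with a difference of 0.76 ± 0.08 (1.69-fold, adjusted p = 2.05e-08). At day 3 it was 0.68 ± 0.08 (2.54e-07). From day 1 to day 8 its level fell by 0.48 in monolayer and rose by 0.40 in sandwich, and these changes differed by 0.88 ± 0.11 (1.35e-06).

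Ndufs7, a core subunit near the ubiquinone site, differed mainly through its course in monolayer. It read 10.36, 10.37 and 10.38 at day 1 and 9.69, 9.75 and 9.82 at day 8 in monolayer, and 10.20, 10.21 and 10.39, then 10.00, 10.23 and 10.19 in sandwich. The monolayer arrays of the days did not overlap and the level fell by 0.62 ± 0.08 (adjusted p = 6.72e-07), while the sandwich arrays overlapped and the change was -0.12 ± 0.08 (0.294). The core subunit Ndufs8 had the reverse pattern: its change was -0.02 ± 0.09 (0.902) in monolayer, with day 8 values of 8.90, 8.94 and 8.95, and it rose by 0.50 ± 0.09 (6.29e-05) to 9.23, 9.33 and 9.20 in sandwich. The difference between the changes passed the test for both (adjusted p = 0.00224 for Ndufs7 and 0.003 for Ndufs8).

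Ndufs1, the largest core subunit, was higher in sandwich by 0.39 ± 0.09 at day 3 (adjusted p = 0.0017), with 10.00, 10.11 and 9.81 against 9.62, 9.61 and 9.51. At day 8 the arrays still did not overlap (9.67, 9.82 and 9.66 against 9.58, 9.57 and 9.64), and the difference of 0.12 ± 0.09 was not called (0.375). Ndufv1, the flavin-carrying core subunit, was higher by 0.32 ± 0.08 at day 3 (0.00467). Its day 8 difference of 0.24 ± 0.08 was called (0.0233), but not without monolayer day 8 replicate 1 (0.0954) or 2 (0.0571) or sandwich day 8 replicate 2 (0.119) or 3 (0.0666).

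Ndufb3, an accessory subunit of the membrane arm, had the largest day 8 difference of all members. It read 10.42, 10.67 and 10.73 in monolayer and 11.39, 11.51 and 11.58 in sandwich. The lowest sandwich array lay above the highest monolayer array, and the difference was 0.88 ± 0.09 (1.85-fold, adjusted p = 1.76e-08). It was -0.13 ± 0.09 at day 1 (0.63) and 0.61 ± 0.09 at day 3 (1.23e-05). The level fell by 0.49 ± 0.09 in monolayer and rose by 0.52 ± 0.09 in sandwich between days 1 and 8, a difference of 1.02 ± 0.12 (1.31e-06).

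Ndufv3, an accessory subunit of the NADH-oxidising module, read 8.93, 9.11 and 9.02 in monolayer and 9.77, 9.87 and 9.79 in sandwich at day 8. The arrays did not overlap, and the difference was 0.79 ± 0.09 (1.73-fold, adjusted p = 2.02e-07). The changes from day 1 differed by 0.94 ± 0.13 (6.67e-06). Its second probe set, with a mean of 7.63, differed by 0.01 ± 0.14 at day 8 (0.977), so the 2 probe sets of this gene disagree, and averaging them ended the call of its rise in sandwich (0.423).

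Ndufc1, a small membrane-arm subunit, read 10.39, 10.12 and 10.20 in monolayer and 11.02, 11.07 and 10.97 in sandwich at day 8, a difference of 0.78 ± 0.10 (1.72-fold, adjusted p = 8.23e-07) without overlap. Ndufb5, another membrane-arm subunit, was higher in sandwich by 0.51 ± 0.09 at day 8 (0.000123), where monolayer had 10.34, 10.27 and 10.28 and sandwich 10.81, 10.82 and 10.79. It fell by 0.55 ± 0.09 in monolayer (3.42e-05), and in sandwich the change was 0.09 ± 0.09 (0.589). Ndufa2, an accessory subunit with a thioredoxin-like fold, rose by 0.60 ± 0.09 from day 1 to day 8 in sandwich (9.1e-06), from 9.66, 9.69 and 9.86 to 10.26, 10.41 and 10.32. In monolayer its change was 0.09 ± 0.09 (0.52), with overlapping arrays.

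Ndufa4, counted by symbol with complex I but assigned by later work to complex IV, was higher in sandwich by 0.26 ± 0.08 at day 8 (adjusted p = 0.0118), with 11.62, 11.62 and 11.61 against 11.39, 11.34 and 11.34. Its hypoxia-linked paralog Ndufa4l2 read 4.43 to 4.85 over the 24 arrays, below the median of all values, and was called in none of the 11 comparisons.

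**Figure D4:**
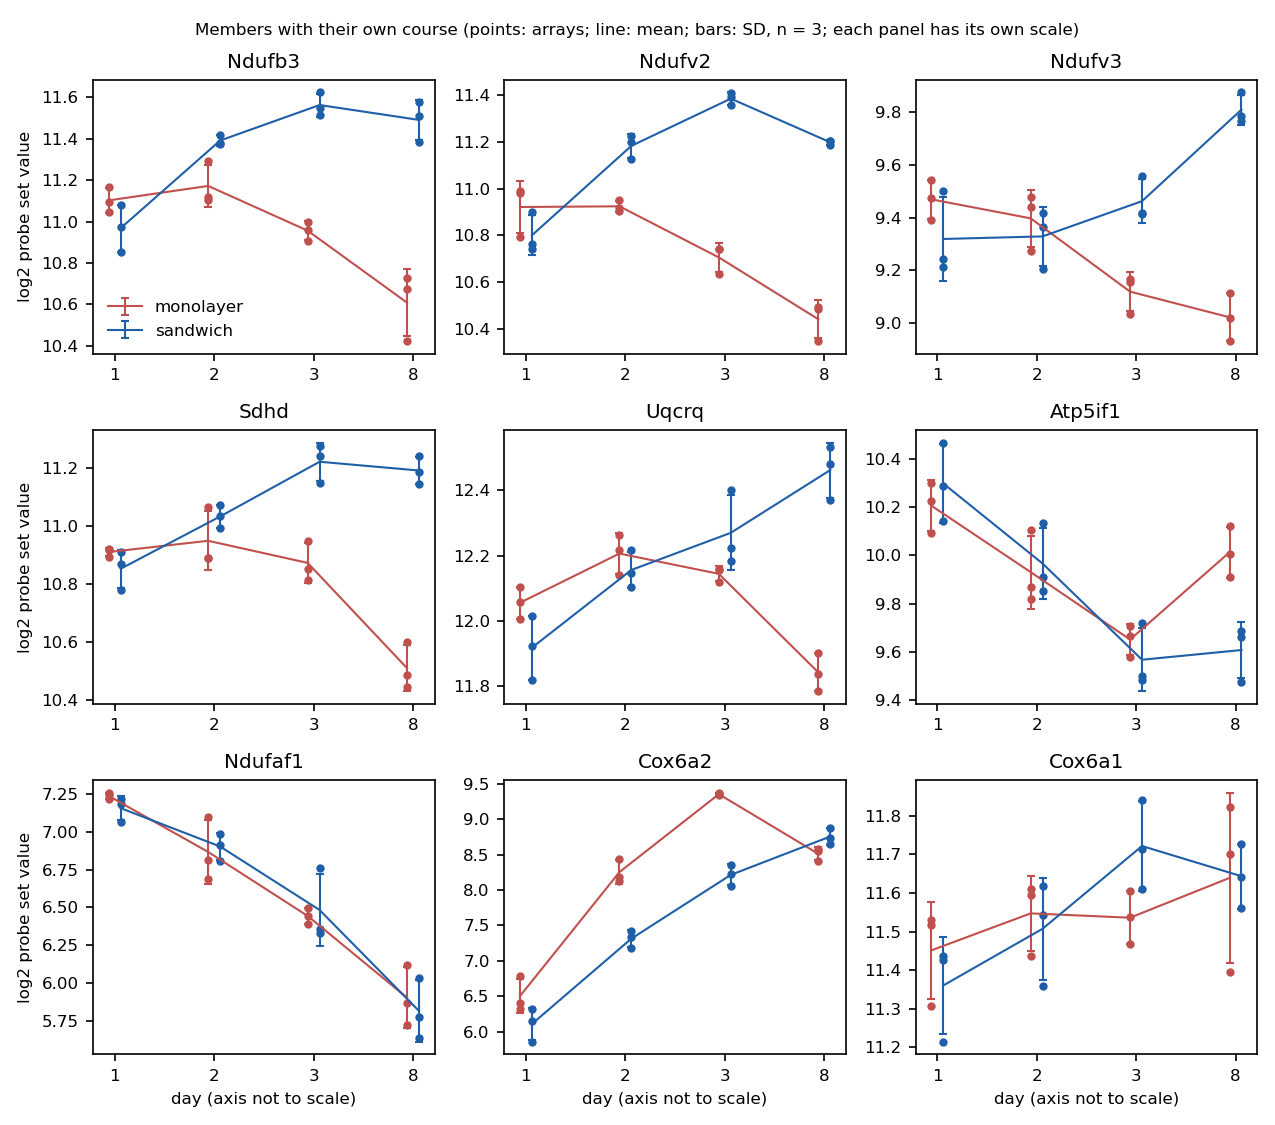
Log2 level by day (horizontal axis, not to scale) of 9 members in monolayer (red) and sandwich (blue), with 1 point per array, a line through the means and bars of 1 SD (n = 3); each panel has its own vertical scale, which does not start at 0. The cultures separate at day 8 for Ndufb3, Ndufv2, Ndufv3, Sdhd and Uqcrq, Ndufaf1 falls alike in both, and Cox6a2 peaks at day 3 in monolayer.

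The 6 assembly factors with the Nduf prefix, which help build complex I and are not part of it, were mostly lower at later times. All 6 were lower in monolayer at day 3 than at day 1 (median -0.58) and 5 of 6 at day 8 (median -0.51). Among all genes 15.1% and 21.2% were lower there. In sandwich 3 of 6 were lower at day 3 and 4 of 6 at day 8 (medians -0.24 and -0.31), and none was higher. Among all genes 9.62% and 17.5% were lower. The sandwich calls of Ndufaf7 were lost in 8 alternative fits at day 3 and 12 at day 8. Those of Ndufaf8 at day 3 and Ndufaf4 at day 8 were lost in 6 and 4. Of the 6 complex I assembly factors without the prefix, 4 were lower in monolayer at day 8. In sandwich 0 of those were lower at day 3 and 1 at day 8 (medians 0.06 and -0.05). Of the 35 complex I subunits, 15 (42.9%) were lower and 0 higher in monolayer at day 8. That is near the 41.6% lower among all genes with a mean above 9. In sandwich 11 (31.4%) were higher and 0 lower, against 24.2% higher among those genes. The assembly factors were not tested against the subunits.

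Ndufaf1, a chaperone of the membrane-arm assembly intermediate, read 7.24, 7.25 and 7.21 at day 1 and 6.12, 5.72 and 5.86 at day 8 in monolayer. In sandwich it read 7.18, 7.22 and 7.07, then 5.77, 6.03 and 5.63. All day 8 arrays lay below all day 1 arrays, while the cultures overlapped at day 8. The level fell by 1.34 ± 0.12 in both cultures (2.52-fold in monolayer and 2.54-fold in sandwich, adjusted p = 3.95e-09 and 5.92e-09). The culture difference at day 8 was -0.09 ± 0.12 (0.679). This was the widest range of group means among the common members, 1.42.

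Ndufaf4, an assembly factor of the hydrophilic arm, had the largest day 3 difference of the common members. It read 8.69, 8.59 and 8.52 in monolayer and 9.42, 9.54 and 9.35 in sandwich, without overlap, a difference of 0.84 ± 0.10 (1.79-fold, adjusted p = 1.19e-06). At day 8 it was 0.52 ± 0.10 (0.00034). Ndufaf8, which acts in early assembly, fell by 0.87 ± 0.10 in monolayer by day 8 (1.54e-07), from 8.02, 7.83 and 7.85 to 7.05, 6.91 and 7.13. In sandwich it fell by 0.37 ± 0.10 (0.00745), a call lost without sandwich day 1 replicate 3 (0.0511).

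Complex II, succinate dehydrogenase, also belongs to the citric acid cycle, and 3 of its 4 subunits were higher in sandwich at day 3 and 3 of 4 at day 8 (medians 0.26 and 0.32). Sdhd, a membrane anchor, read 10.49, 10.60 and 10.45 in monolayer and 11.14, 11.24 and 11.19 in sandwich at day 8. The arrays were apart by 0.68 ± 0.08 (1.60-fold, adjusted p = 1.26e-07), and its second probe set differed by 0.63 ± 0.10 (3.2e-05). The level fell by 0.40 ± 0.08 in monolayer and rose by 0.34 ± 0.08 in sandwich from day 1 to day 8.

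Sdha, the flavoprotein that oxidises succinate, was higher in sandwich by 0.36 ± 0.08 at day 8 (adjusted p = 0.00143), with 10.41, 10.53 and 10.40 against 10.00, 10.10 and 10.15. Sdhb, the iron-sulfur subunit, did not keep its day 3 difference: at day 8 monolayer read 11.32, 11.36 and 11.37 and sandwich 11.26, 11.38 and 11.43, which overlap (0.01 ± 0.07, 0.958). Its day 3 difference of 0.22 ± 0.07 (0.0389) was not called without monolayer day 3 replicate 1 (0.161) or 3 (0.1) or sandwich day 3 replicate 1 (0.135) or 2 (0.11). Sdhc, the other membrane anchor, was higher by 0.28 ± 0.09 at day 8 (0.0213), a call lost without monolayer day 8 replicate 1 (0.144) or sandwich day 8 replicate 3 (0.117).

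Of 8 complex III members, 2 were higher in sandwich at day 3 and 5 at day 8 (medians 0.22 and 0.28), which is 25% and 62.5%. The day 3 share is near the 23.3% of all genes with a mean above 9, and the day 8 share compares with 31% of them. Of the 8, 6 (75%) were lower in monolayer at day 8 than at day 1, against 41.6% of genes with a mean above 9. Uqcrq, a small subunit at the ubiquinone side, read 11.84, 11.90 and 11.79 in monolayer and 12.37, 12.48 and 12.53 in sandwich at day 8. The groups did not overlap, and the difference was 0.62 ± 0.08 (1.54-fold, adjusted p = 1.06e-06). At day 3 it had been 0.13 ± 0.08 (0.363). It rose by 0.54 ± 0.08 in sandwich from day 1 (8.71e-06), and the changes of the cultures differed by 0.76 ± 0.11 (2.04e-05).

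Cyc1, cytochrome c1, which passes electrons to cytochrome c, was higher in sandwich by 0.47 ± 0.08 at day 3 (adjusted p = 6.83e-05) and by 0.30 ± 0.08 at day 8 (0.0042). At day 8 monolayer read 11.10, 11.09 and 11.12 and sandwich 11.32, 11.41 and 11.47, without overlap. It fell by 0.46 ± 0.08 in monolayer from day 1 (3.82e-05), where sandwich changed by -0.03 ± 0.08 (0.862). The Rieske iron-sulfur protein Uqcrfs1 was higher in sandwich at day 8 by 0.27 ± 0.08 (0.0127), but not without monolayer day 8 replicate 1 (0.0861). The core protein Uqcrc1 differed by 0.18 ± 0.07 at day 8, which was not called (0.0587), although its arrays (11.06, 10.93 and 11.01 against 11.20, 11.16 and 11.19) did not overlap.

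Of the 10 common complex IV members, 2 were higher in sandwich at day 3 and 5 at day 8 (medians 0.18 and 0.24), which is 20% and 50%. At day 3 this is no more than the 23.3% of all genes with a mean above 9, and at day 8 it compares with 31% of them. Cox7b, a small subunit, read 11.73, 11.58 and 11.70 in monolayer and 12.12, 12.35 and 12.39 in sandwich at day 8. These did not overlap, and the difference was 0.62 ± 0.08 (1.53-fold, adjusted p = 1.57e-06), with 0.43 ± 0.08 at day 3 (0.000363). It came with a rise of 0.57 ± 0.08 in sandwich from day 1 (5.72e-06), while monolayer changed by -0.06 ± 0.08 (0.662).

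Cox8a, another small subunit, read 11.83, 11.47 and 11.69 in monolayer and 12.24, 12.09 and 12.13 in sandwich at day 8, a difference of 0.49 ± 0.10 (adjusted p = 0.000625) without overlap. It rose by 0.61 ± 0.10 in sandwich (5.59e-05), the largest rise there among the common members. Cox4i1, a regulatory subunit often used as a loading control, was called in none of the 11 comparisons: its day 8 values were 12.36, 12.29 and 12.42 in monolayer and 12.52, 12.57 and 12.44 in sandwich, apart by 0.15 ± 0.07 (0.129). Cox5b was higher in sandwich at day 3 by 0.28 ± 0.07 (0.0066). Cox5a was read here by a probe set with a mean of 7.33 and the widest spread among the common members (median SD 0.26), and was not called. A brighter probe set that Cox5a shares with another symbol (mean 12.22) was not called between the cultures either. That probe set rose in sandwich from day 1 to day 3 by 0.29 ± 0.08 (adjusted p = 0.0161).

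Among the tissue-limited isoforms, Cox6a2, the form of subunit VIa found in heart and skeletal muscle, moved most of all members. In monolayer it read 6.33, 6.40 and 6.78 at day 1, 8.13, 8.44 and 8.18 at day 2, 9.34, 9.35 and 9.37 at day 3, and 8.58, 8.55 and 8.41 at day 8. In sandwich it read 5.86, 6.32 and 6.15, then 7.19, 7.33 and 7.42, then 8.06, 8.36 and 8.23, and 8.64, 8.74 and 8.88. It was lower in every sandwich array than in every monolayer array up to day 3, and at day 8 the order was the reverse.

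By day 3 Cox6a2 had risen by 2.85 ± 0.12 in monolayer (7.21-fold, adjusted p = 2.25e-14), and by day 8 by 2.65 ± 0.12 in sandwich (6.26-fold, 2.32e-14). Sandwich minus monolayer was -0.94 ± 0.12 at day 2 (1.06e-05) and -1.14 ± 0.12 at day 3 (2.20-fold lower, 1.37e-07), and the day 8 difference of 0.24 ± 0.12 was not called (0.16). Its liver counterpart Cox6a1 read 11.21 to 11.84 over the 24 arrays. It rose in sandwich by 0.36 ± 0.11 from day 1 to day 3 (0.0205), a call lost without sandwich day 1 replicate 2 (0.124) or sandwich day 3 replicate 1 (0.113). The change in Cox6a1 from day 1 to day 8 was 0.19 ± 0.11 in monolayer (0.208) and 0.28 ± 0.11 in sandwich (0.054).

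Markers of muscle other than these isoforms were measured beside it. Of 6 (Myh6, Myh7, Tnni3, Tnnt2, Ckm and Myl2), 5 lay below the median of all values in every group, their summed level was 7.21 to 7.47 over the arrays, and 0 were called in any of the 11 comparisons. The skeletal actin gene Acta1, chosen after its values were seen, rose in monolayer from 6.49 ± 0.13 (SD, n = 3) at day 1 to 11.76 ± 0.21 at day 3 and differed by -5.66 ± 0.30 between sandwich and monolayer at day 3 (adjusted p = 4.49e-13). Its course parted from that of Cox6a2 at day 8. Acta1 then read 11.77 ± 0.04 in monolayer and 6.12 ± 0.46 in sandwich, still -5.66 ± 0.30 apart (1.42e-13). Cox6a2 by then had fallen from its day 3 level in monolayer and was not lower in sandwich.

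The other isoforms stayed near or below the median of all values: the testis forms Cox6b2 (3.53 to 3.94) and Cox7b2 (3.70 to 4.17) and the muscle form Cox8b (4.28 to 5.06) were called in none of the comparisons, and neither was the muscle form Cox7a1 (5.44 to 5.98). Cox4i2, the lung isoform of subunit IV, was higher in sandwich by 0.46 ± 0.12 at day 8 (adjusted p = 0.00505), with 5.48, 5.42 and 5.52 against 4.85, 5.05 and 5.13. At these levels, below the median of all values, no fold is given. Cox7a2l, a factor that joins complexes III and IV into supercomplexes, had differences of -0.19 ± 0.10 at day 3 (0.213) and -0.10 ± 0.10 at day 8 (0.54). In monolayer it rose by 0.31 ± 0.10 by day 8 (0.0132), a call lost without monolayer day 1 replicate 1 (0.0713) or monolayer day 8 replicate 2 (0.0789) or 3 (0.0677), and with arrays centred on their medians (0.0556).

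Of 16 members of ATP synthase, 6 were higher in sandwich at day 3, and 10 were higher and 1 lower at day 8 (medians 0.21 and 0.26). The catalytic beta subunit Atp5f1b rose in sandwich by 0.43 ± 0.09 from day 1 to day 8 (adjusted p = 0.000601), from 12.37, 12.19 and 12.52 to 12.78, 12.84 and 12.74. In monolayer it went from 12.52, 12.45 and 12.28 to 12.62, 12.61 and 12.79, a rise of 0.25 ± 0.09 (0.0318) that was not called without monolayer day 1 replicate 2 (0.0526) or 3 (0.175), without monolayer day 8 replicate 3 (0.168), or with arrays centred on their medians (0.146). The cultures did not differ beyond their spread at day 8 (0.11 ± 0.09, 0.4).

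The alpha subunit Atp5f1a, its partner in the catalytic head, went from 12.02, 12.16 and 12.14 to 11.70, 11.91 and 11.86 in monolayer, and from 11.81, 12.09 and 12.08 to 11.98, 12.22 and 12.17 in sandwich. At day 8 it was higher in sandwich by 0.30 ± 0.10 (adjusted p = 0.0212). That call was lost without monolayer day 8 replicate 1 (0.112) or sandwich day 8 replicate 2 (0.0945) or 3 (0.0717), and after quantile normalization (0.146).

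Atp5f1e, the epsilon subunit of the central stalk, read 11.24, 11.32 and 11.33 in monolayer and 11.76, 11.78 and 11.86 in sandwich at day 8. The arrays did not overlap, and the difference was 0.51 ± 0.08 (1.42-fold, adjusted p = 3.75e-05). Atp5po, the oligomycin sensitivity-conferring protein of the outer stalk, was higher in sandwich by 0.52 ± 0.09 at day 3 (0.000102) and 0.45 ± 0.09 at day 8 (0.000329), with day 8 values of 10.84, 11.01 and 11.02 against 10.41, 10.50 and 10.62. Its second probe set, with a mean of 4.49, was not called, and averaging both ended the day 3 call (0.0708). Atp5mk, a small membrane subunit that holds ATP synthase in dimers, rose from day 1 to day 8 in both cultures, by 0.37 ± 0.09 in monolayer (0.00322) and 0.47 ± 0.09 in sandwich (0.000398).

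Atp5if1, the inhibitor that binds ATP synthase and limits ATP hydrolysis, was the 1 common member lower in sandwich at day 8. Monolayer read 9.91, 10.01 and 10.12 and sandwich 9.47, 9.66 and 9.69, without overlap, a difference of -0.41 ± 0.11 (sandwich 1.32-fold lower, adjusted p = 0.00459). It fell in both cultures by day 3, by 0.56 ± 0.11 in monolayer (0.000344) and 0.73 ± 0.11 in sandwich (1.52e-05). From day 1 to day 8 it fell by 0.69 ± 0.11 in sandwich (1.53e-05), and in monolayer the change was -0.19 ± 0.11 (0.188). Its other 2 probe sets lay below the median of all values (means 4.77 and 5.07) and were not called, and averaging the 3 ended the day 8 culture call (0.517) and the monolayer day 3 call (0.0507).

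Other genes of mitochondrial energy metabolism were read from lists by function, beside the 15.6% higher and 20.7% lower among all genes at day 8. Of 15 measured genes of the citric acid cycle and pyruvate dehydrogenase, 6 were higher and 1 lower in sandwich at day 8. The E1 beta subunit of pyruvate dehydrogenase, Pdhb, was higher by 0.87 ± 0.10 (adjusted p = 3.59e-07), and isocitrate dehydrogenase Idh2 was lower, with a difference of -1.21 ± 0.10 (5.51e-10). The mRNA of citrate synthase (Cs), an enzyme often used as a measure of mitochondrial content, did not differ beyond its spread at day 8 (-0.03 ± 0.08, 0.833). It fell by 0.97 ± 0.08 in monolayer and 0.90 ± 0.08 in sandwich from day 1. Mitochondrial content itself was not measured.

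Of 16 measured regulators of mitochondrial biogenesis and mitochondrial DNA, 4 were higher and 0 lower at day 8. The coactivator Ppargc1a differed by 0.46 ± 0.18 (adjusted p = 0.0655) and rose in sandwich by 0.90 ± 0.18 from day 1 to day 8 (0.000493). Its sandwich levels were low, 5.84, 5.62 and 6.07 at day 1, near the median of all values, and 6.55, 6.83 and 6.87 at day 8. The mitochondrial DNA packaging factor Tfam differed by -0.07 ± 0.10 (0.686) and fell by 0.59 ± 0.10 in monolayer and 0.57 ± 0.10 in sandwich. The accessory subunit of the mitochondrial DNA polymerase, Polg2, was higher in sandwich by 0.61 ± 0.14 at day 8 (0.00106).

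Of 31 measured assembly factors of complexes II to V, 16 were higher and 1 lower in sandwich at day 8, with a median of 0.27. Sdhaf1 and Sdhaf3, which help insert the iron-sulfur centres of complex II, were higher by 1.30 ± 0.08 (adjusted p = 6.88e-12) and 1.31 ± 0.14 (5.65e-08). Cox15, an enzyme of heme A synthesis for complex IV, was lower, with a difference of -0.95 ± 0.08 (7.92e-10). Of 6 complex I assembly factors without the Nduf prefix, 3 were higher and 0 lower, among them Foxred1 (0.62 ± 0.12, 0.000316) and Acad9 (0.52 ± 0.09, 4.65e-05).

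Of 16 measured genes of ubiquinone synthesis and of other entries to the chain, 11 were higher and 2 lower at day 8. The electron transfer flavoprotein dehydrogenase Etfdh, which brings electrons from fatty acid oxidation to ubiquinone, was higher by 1.29 ± 0.10 (adjusted p = 8.07e-11), and its partner Etfb by 0.83 ± 0.10 (2.22e-07). Of 8 carriers of ADP, phosphate and ions, 1 was higher and 3 lower, among them the uncoupling protein Ucp2, with a difference of -2.59 ± 0.12 (3.39e-14). Of 73 mitochondrial ribosomal proteins, which make the subunits encoded in mitochondrial DNA, 32 were higher and 1 lower at day 8 (median 0.22). In monolayer 52 were lower and 1 higher at day 8 than at day 1. Over those days 21.2% of all genes were lower in monolayer, and 41.6% of those with a mean above 9.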

How the data were processed

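The values are log2 probe set summaries as deposited, 1 per probe set and array; they sit between arrays on a common scale, and the submitters' processing notes list RMA and limma without saying what each did. The authors' genome build and annotation are not given in the sources used here. Of 31099 probe sets, 57 controls were left out. Of the 31042 tested, 20826 carried 1 gene symbol in the platform annotation, 436 several and 9780 none. A model with 1 mean for each of the 8 groups was fitted to all 24 arrays with limma 3.58.1 in R 4.3.3, with p-values adjusted by Benjamini-Hochberg over all probe sets within each of 11 comparisons: sandwich against monolayer at each of 4 times, each later time against day 1 within a culture, and the difference between the day 8 changes. The procedure was tested on simulated data.

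The members, the lists and the rules were chosen with earlier results of these data known. Members are named where they are among the 5 largest called differences in a direction in a comparison of cultures, of day 8 with day 1, or of those changes, the brightest or dimmest of a complex, a tissue-limited isoform or its counterpart, a gene with probe sets called in opposite directions, or one of a set of central subunits; genes of other lists are up to 3 with the smallest adjusted p at day 8, and Cs, Tfam and Ppargc1a. Alternatives were quantile normalization, median centring, the interquartile range as a covariate, array weights, a replicate block, limma's trend and robust options, fewer groups, brighter probe sets, averaged probe sets, and leaving out each array. The table holds no detection calls, and 3 arrays per group limit the precision.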

Additional observations from a re-analysis of the deposited data

Results flagged for a closer look

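The change from day 1 to day 8 differed between the cultures for 38 of the 87 members, by the contrast of the changes itself (limma, sandwich minus monolayer, adjusted over all probe sets; 11.3% of all genes called above 0 and 10.5% below). The largest differences above 0 were 1.02 for Ndufb3, 0.94 for Ndufv3, 0.88 for Ndufv2, 0.82 for Ndufc1 and 0.76 for Uqcrq. The second probe set of Ndufv3 gave 0.04 ± 0.20 and was not called (adjusted p = 0.94). The difference below 0 was that of the inhibitor Atp5if1, -0.50 ± 0.15 (adjusted p = 0.0223). It was not called without monolayer day 1 replicate 1 (0.0689), monolayer day 8 replicate 3 (0.0676), sandwich day 1 replicate 2 (0.0777) or sandwich day 8 replicate 1 (0.0704), or with its 3 probe sets averaged (0.737). Groups of 3 arrays are too small for a test of single outlying arrays.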

How the results depend on the processing

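No named call reversed direction under any alternative run, and counts were compared by their size only. Of 168 named calls, 98 kept direction and side of the threshold under every alternative. Over all 87 members, sandwich against monolayer gave 0 calls on day 1, 3 on day 2, 38 on day 3 and 51 on day 8. Fitted on the groups of the comparison alone, with fewer arrays behind each spread, they were 1 at day 2, 23 at day 3 and 33 at day 8; for monolayer day 2 against day 1 they were 1 in place of 2, and for sandwich 4 in place of 11 at day 2 and 19 in place of 45 at day 3. The day 8 calls of Ndufv1 (adjusted p = 0.115), Ndufa4 (0.0625), Sdhc (0.0934), Uqcrfs1 (0.0876) and Atp5f1a (0.0654) and the day 3 calls of Sdhb (0.177) and Cox5b (0.0662) were lost there. Array weights gave 1 at day 1, 6 at day 2, 6 for monolayer day 2 and 23 for sandwich day 2. For sandwich day 2 the interquartile range covariate gave 17, the trend and robust options 20, and brighter probe sets alone 21; the cause of these was not tested. Leaving out each array in turn gave 0 to 0 for day 1, 1 to 3 for day 2, 25 to 38 for day 3 and 36 to 52 for day 8. Day 2 had 1 without monolayer day 2 replicate 3 or sandwich day 2 replicate 1. The monolayer ranges were 1 to 3 at day 2 (1 without monolayer day 1 replicate 1 or monolayer day 2 replicate 1 or 3), 14 to 21 at day 3 and 26 to 40 at day 8. The sandwich ranges were 5 to 12, 31 to 47 and 27 to 37, and the difference between the day 8 changes had 28 to 39. With the replicate number as a block, 1 member was called lower at day 1, 43 at day 3 and 54 at day 8, and sandwich day 2 had 16; no other count moved by over 1.5 times. The numbers share no stated source: deviations of same-numbered arrays correlated with a median of 0.20 (-0.43 to 0.53, 56 of 84 pairs over 0.1), those of other numbers with -0.13. Many differences here lie near 0.25, a size at which some members were called and others were not with 3 arrays per group.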
